A study of Drosophila melanogaster with 21 samples.

Results

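Transcript levels of 8 genes of the fly's eye pigment pathways were compared in heads of control and Crtc knockout flies. The genes were white (w), scarlet (st), brown (bw), vermilion (v), cinnabar (cn), sepia (se), Punch (Pu) and rosy (ry), found by FlyBase identifier among 17559 genes listed in each of 4 deposited tables. They were taken by name, for their place in the pathways, with earlier results of these data known. Of the 8, 7 were measured with an adjusted p in every table, and cn was not.

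The head samples were taken from adult Drosophila melanogaster of 3 to 5 days, kept on standard media and either fed or fasted for 16 hours. Control flies are given as w1118 (their sample titles say wt) and knockout flies as crtc ko, with no allele or sex stated. Crtc is the fly's coactivator of the transcription factor CREB. Fed control, fasted control, fed knockout and fasted knockout heads gave 3, 2, 3 and 2 libraries, so 10 of the series' 21 samples enter. The stock w1118 carries a deletion in the white gene, and such flies have white eyes. The labels do not say which white allele the knockout stock carries, nor whether replicates are separate collections of flies. The p-values then reflect only how far these libraries vary, and that variation could be technical.

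The red eye of the fly holds brown ommochromes, made from tryptophan, and red pteridines (drosopterins), made from GTP, in granules of the pigment cells and photoreceptors. White is a half-transporter of the ABC family: with Scarlet it carries ommochrome precursors into the granule, and with Brown it carries pteridine precursors. Vermilion (tryptophan dioxygenase) and Cinnabar (kynurenine monooxygenase) are enzymes of the ommochrome branch. Punch (GTP cyclohydrolase), Sepia (a glutathione transferase that makes a drosopterin precursor) and Rosy (xanthine dehydrogenase) act on pteridines. Several of these enzymes also work outside the eye, Punch in making the cofactor of dopamine and serotonin synthesis and Rosy in purine breakdown to urate.

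The knockout label was checked first. Crtc had a base mean, the mean normalized count per library, of 339.7 in the control table and 0.360 in the knockout table of fasting, both the authors' deposited tables. The tables give no value per library. A level for each group was therefore solved from base mean, fold and library numbers, and is given in ppm of all normalized counts. Each group appears in 2 tables, and both estimates are printed as a range, which shows how well the tables match and is no error between libraries. Errors below are the authors' standard errors of log2 folds, which their method shrinks towards 0. Fed library 3 of either genotype is listed by the labels with another set of samples than libraries 1 and 2, and that set has no fasted head, so a set difference and fasting cannot be told apart in part of the fasting comparisons. In whole heads, fewer cells of a type and less RNA per cell cannot be told apart.

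As a ratio of group levels, white transcript was 12.9- to 16.3-fold higher in fed control than in fed knockout heads, and 10.9- to 12.3-fold higher in fasted ones. Each range only spans the level estimates from different tables. The standard errors of the folds with the shrinkage taken out, 0.41 when fed and 0.50 when fasted on the log2 scale, are wider. The other measured genes of the group did not pass in either genotype comparison. The level of w (FBgn0003996, chromosome X, 2790599 to 2796466, minus strand of BDGP6, protein-coding, 6 merged exons) was 17.7 to 17.9 ppm in fed and 21.8 to 22.1 in fasted control heads. In knockout heads it was 1.10 to 1.37 when fed and 1.80 to 1.99 when fasted. Both control groups lay above both knockout groups. In the authors' deposited tables of fasting, w had a base mean of 80.1 for control and 4.94 for knockout.

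The log2 fold of w in knockout over control heads was -2.42 ± 0.27 when fed in the authors' deposited table (DESeq2 adjusted p = 1.48e-16). It was -2.31 ± 0.34 when fasted in the authors' deposited table (DESeq2 adjusted p = 8.16e-10). With the shrinkage taken out these became -3.65 ± 0.41 and -3.42 ± 0.50. Over both feeding states the shrunken fold was -2.38 ± 0.21 (normal test, Benjamini-Hochberg over 8557 genes, adjusted p = 5.72e-27). Of the 7 members tested, w was the 1 called in each genotype comparison, and it was lower each time. Of all genes tested, 4.75% were called when fed (2.27% higher, 2.49% lower) and 5.39% when fasted (3.43% higher, 1.97% lower). Over both states 10.4% were called (5.54% higher, 4.81% lower). Only 17 of 10285 genes had a lower fold than w when fed and 18 of 9917 when fasted. The flies labelled w1118 were thus the ones with more of the transcript. With a t distribution with the residual degrees of freedom in place of the normal one, no gene was called in either table. That includes Crtc, the gene knocked out, as well as w (adjusted p = 0.226 when fed). With so few libraries this setting calls nothing, so it cannot set w apart from other genes. Whether the difference in w belongs to Crtc or to the white alleles of the stocks cannot be told apart with these groups.

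White was not called on fasting. Its log2 fold was 0.25 ± 0.23 in control heads (95% interval -0.20 to 0.71) and 0.23 ± 0.29 in knockout heads (-0.34 to 0.79), per the authors' deposited tables (DESeq2 adjusted p = 0.998 in both). The knockout value rests on about 5 normalized counts per library. With the shrinkage taken out the folds became 0.32 ± 0.30 in control and 0.74 ± 0.95 in knockout heads. The shrinkage thus narrows the knockout interval given above, and the data hardly limit that fold. In the order of levels, fasted and fed control heads, and likewise fasted and fed knockout heads, did not differ beyond this spread.

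**Figure D1:**
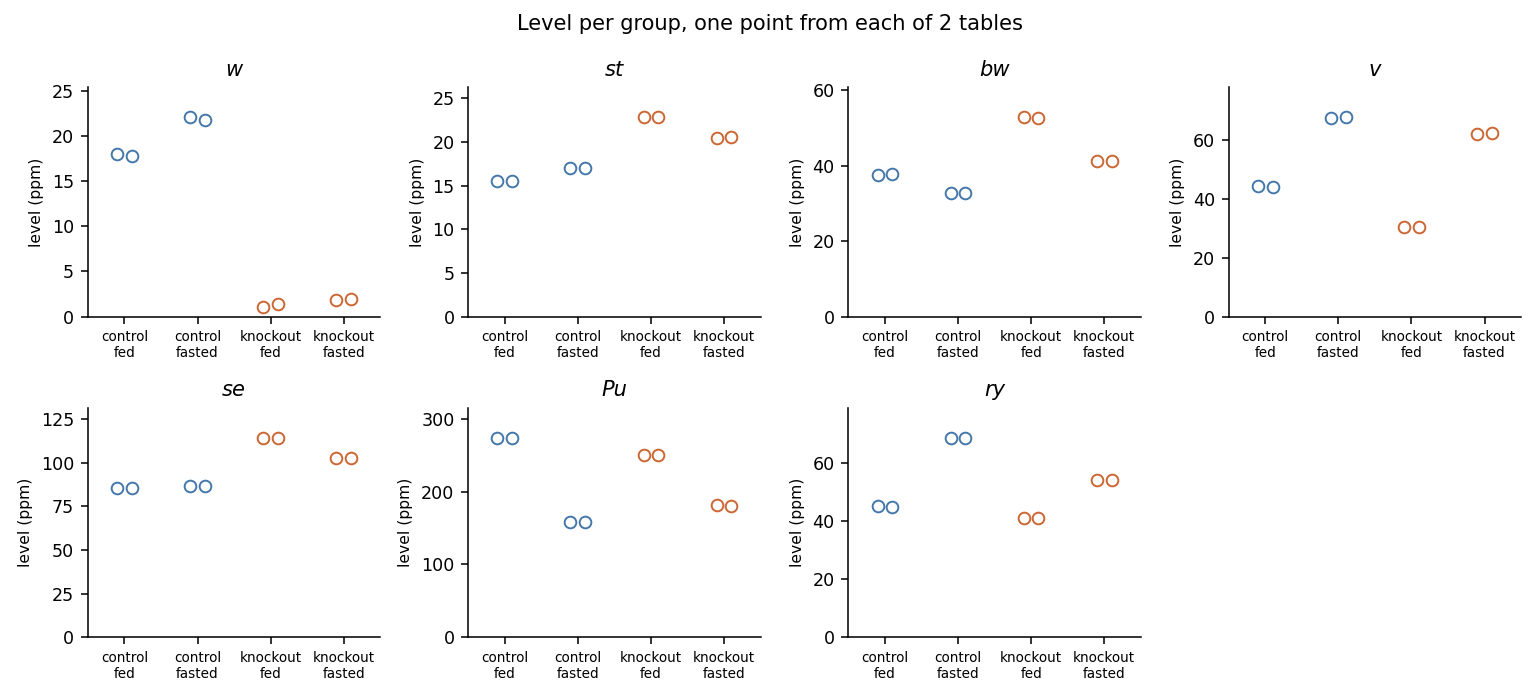
Level in ppm in each of the 4 groups for the 7 measured genes, on linear axes from 0; the 2 points of a group are its estimates from the 2 tables that hold it, and no error between libraries is drawn. White lies at 17.7 to 22.1 in control and at 1.10 to 1.99 in knockout heads, Vermilion and Rosy are higher in both fasted groups, and Punch is lower in both.

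Neither partner of White was called lower in knockout heads. The level of st (FBgn0003515, chromosome 3L, 16497651 to 16500460, plus strand) was 15.5 to 15.6 ppm in fed and 17.0 in fasted control heads. Knockout heads stood at 22.8 when fed and 20.5 when fasted. The order of means was fed knockout, fasted knockout, fasted control, fed control, and no neighbours in it were called apart. The log2 fold in knockout over control heads was 0.49 ± 0.22 when fed and 0.24 ± 0.29 when fasted in the authors' deposited tables (DESeq2 adjusted p = 0.278 and 0.999).

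The level of bw (FBgn0000241, chromosome 2R, 23527805 to 23538499, minus strand) was 37.6 to 37.7 ppm in fed and 32.8 to 32.9 in fasted control heads. Knockout heads stood at 52.7 to 52.8 when fed and 41.3 when fasted. The order of means was fed knockout, fasted knockout, fed control, fasted control. The 2 knockout groups and the 2 control groups were not called apart, and fasted knockout against fed control was not tested. The log2 fold in knockout over control heads was 0.46 ± 0.18 when fed and 0.31 ± 0.25 when fasted in the authors' deposited tables (DESeq2 adjusted p = 0.170 and 0.899). Over both states bw stood at 0.41 ± 0.15 and just missed the threshold (normal test, adjusted p = 0.056), and st stood at 0.40 ± 0.17 (adjusted p = 0.154). Of the exon bases of bw, 456 of 2738 are shared with the gene mi on the opposite strand. Without knowing the strand setting, reads there may belong to either, and mi stood at -0.14 when fed and -0.30 when fasted in the authors' deposited tables of knockout against control.

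Per kilobase of annotated exon, w and st were at like levels in control heads, and w lay far below st in knockout heads. Exon lengths are those of the reference annotation, and the length of the w transcript in these stocks is not known. The scale is therefore only a rough comparison between genes. The level of w was 7.58 ppm per kilobase in fed and 9.32 in fasted control heads, against 7.24 and 7.92 for st. The ratio of w to st was 1.05 and 1.18 in these groups. In knockout heads the ratio was 0.0494 when fed and 0.0844 when fasted. The ratio of w to bw went from 0.551 and 0.778 in fed and fasted control heads to 0.0273 and 0.0534 in knockout heads. These ratios are descriptions of group levels, with no test. On the same scale the enzyme genes se and Pu had the highest levels of the 7 in fed control heads, at 104 and 127, and v and ry stood at 34.0 and 10.4.

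**Figure D2:**
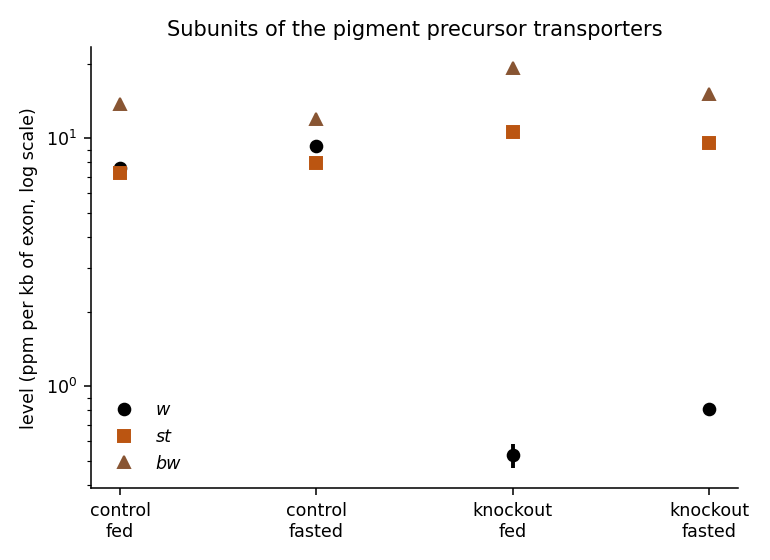
Level in ppm per kilobase of exon (log axis) of the 3 half-transporter genes in each group; a symbol is the mean of the estimates from 2 tables and a bar their range. White falls from 7.58 and 9.32 in control to 0.526 and 0.806 in knockout heads, while scarlet and brown stay between 7.24 and 19.3.

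Genes flanking w were examined for their position alone, as the 3 nearest on either side whose base mean reached 10 in every table. On the lower-coordinate side lay CG32795, at 32 bases from w, Syx4 and crm, with log2 folds between -0.36 and 0.17 in the authors' deposited tables of knockout against control. None of these 3 was called. On the other side lay kirre, whose gene span encloses w on the opposite strand, and then CG14419 and CG3588 at 88720 and 123304 bases. The gene kirre, which encodes a cell adhesion protein, stood at 0.20 ± 0.23 when fed and 0.08 ± 0.26 when fasted in the authors' deposited tables. CG14419 was higher in knockout heads, by 1.16 ± 0.25 when fed and 2.30 ± 0.26 when fasted in the authors' deposited tables (DESeq2 adjusted p = 0.00024 and 6.36e-16). CG3588 was higher when fasted, by 1.19 ± 0.24 in the authors' deposited table (DESeq2 adjusted p = 4.85e-05). None of the 6 neighbours was called lower in knockout heads. With 2.49% of all genes tested called lower when fed and 1.97% when fasted, none among 6 lies near that background. The shares called higher were 2.27% when fed and 3.43% when fasted.

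Scarlet lies 1.16 Mb from Crtc on chromosome 3L, and se lies 9.14 Mb from it. Of the 6 genes nearest st, Mipp1, an inositol polyphosphate phosphatase gene, was higher in fasted knockout heads by 0.72 ± 0.23 in the authors' deposited table (DESeq2 adjusted p = 0.0357). Its other 5 neighbours, CG33158, CG42514, aos, CG43373 and mbf1, were not called in the authors' deposited tables of knockout against control. Of the 6 genes nearest Crtc, the adenosine deaminase-related gene Adgf-A was higher in fasted knockout heads by 0.98 ± 0.30 in the authors' deposited table (DESeq2 adjusted p = 0.0223). CG7484, Krn, Ndfip, Ccn and NUCB1 were not called there. In fasted knockout heads 3.43% of all genes tested were called higher.

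The genes whose 4 log2 folds lay closest to those of w, by Euclidean distance among 8430 genes, were JhI-21 (distance 0.34), Sting (0.62) and lncRNA:CR32368 (0.72). JhI-21, which encodes an amino acid transporter, stood at -2.48 ± 0.20 when fed and -2.33 ± 0.22 when fasted in the authors' deposited tables of knockout against control. Sting, an innate immune sensor gene, stood at -2.50 ± 0.21 and -1.98 ± 0.27 in the authors' deposited tables. The 4 folds share libraries, so this likeness is a description over 4 comparisons.

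Vermilion transcript, for the first enzyme of the ommochrome branch, rose on fasting in knockout heads and over both genotypes. The level of v (FBgn0003965, chromosome X, 10923972 to 10925631, plus strand) was 44.1 to 44.5 ppm in fed and 67.7 to 67.9 in fasted control heads. Among knockout heads it was 30.4 when fed and 62.2 to 62.6 when fasted. Both fasted groups lay above both fed groups. The log2 fold on fasting was 0.85 ± 0.25 in knockout heads and passed in the authors' deposited table (DESeq2 adjusted p = 0.0229), where 3.26% of all genes tested were called (2.76% higher, 0.498% lower). In control heads it was 0.55 ± 0.19 and missed the threshold in the authors' deposited table (DESeq2 adjusted p = 0.0744).

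Over both genotypes v rose by 0.66 ± 0.15 (normal test over 8474 genes, adjusted p = 0.000302). Knockout and control did not differ past the threshold, with a fold of -0.41 ± 0.22 when fed and -0.08 ± 0.22 when fasted in the authors' deposited tables (DESeq2 adjusted p = 0.510 and 0.999). The closest patterns to that of v were those of path, an amino acid transporter gene, Gk1, a glycerol kinase gene, and CG7888, at distances of 0.093, 0.146 and 0.148 among 8429 genes. On fasting, path stood at 0.57 ± 0.19 (control) and 0.92 ± 0.18 (knockout) by the authors' deposited tables.

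Cinnabar was almost uncounted. Its base mean was between 0 and 0.437 in the authors' deposited tables, which is at most 2.62 normalized counts summed over the 6 libraries of 1 table. No fold is given for it, and it had no adjusted p. The gene (FBgn0000337, chromosome 2R, 7782797 to 7785067, minus strand) shares 1229 of its 1790 exon bases (68.7%) with asRNA:CR45108 on the opposite strand, whose own base mean was at most 1.31 in the authors' deposited tables. Among protein-coding genes with at least 90 percent of exon bases shared with another gene, 86.8% had a base mean under 1 in every table, against 12.2% of those sharing 10 to 90 percent, the class of cn, and 23.7% of those sharing less. Whether the sharing bears on the low count of cn was not tested.

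Other genes of tryptophan breakdown were cd, which encodes an ommochrome-related peroxidase, and Kyat, a kynurenine aminotransferase gene. Over both genotypes Kyat rose on fasting by 0.52 ± 0.14 (normal test, adjusted p = 0.00602), and cd stood at -0.18. Neither was called in a single table, and 1 further list gene, KFase, was not matched to the tables.

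Punch transcript, for the first enzyme of pteridine synthesis, fell on fasting in control heads and over both genotypes. The level of Pu (FBgn0003162, chromosome 2R, 21175315 to 21182608, plus strand) was 274.0 to 274.1 ppm in fed and 158.6 in fasted control heads. The knockout level was 250.2 to 250.3 when fed and 181.0 to 181.1 when fasted. Both fed groups lay above both fasted groups. The log2 fold on fasting was -0.70 ± 0.15 in control heads and passed in the authors' deposited table (DESeq2 adjusted p = 0.000303), where 3.84% of all genes tested were called (2.19% higher, 1.65% lower). In knockout heads it was -0.41 ± 0.17 and did not pass in the authors' deposited table (DESeq2 adjusted p = 0.287).

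Over both genotypes Pu fell, with a log2 fold of -0.57 ± 0.11 (normal test over 8474 genes, adjusted p = 2.59e-05). Only 125 of these genes had a lower fold. The log2 fold in knockout over control heads was -0.09 ± 0.14 when fed and 0.20 ± 0.20 when fasted in the authors' deposited tables (DESeq2 adjusted p above 0.9 in both). The closest patterns were those of Obp57b, an odorant-binding protein gene, CG16700 and Inx2, a gap junction gene, at distances of 0.072, 0.147 and 0.152 among 8429 genes.

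Rosy transcript rose on fasting when both genotypes were pooled. The level of ry (FBgn0003308, chromosome 3R, 13032528 to 13038020, plus strand) was 45.0 to 45.1 ppm in fed and 68.6 to 68.7 in fasted control heads. The knockout level was 40.9 to 41.0 when fed and 54.1 when fasted. The log2 fold on fasting was 0.56 ± 0.18 in control and 0.38 ± 0.20 in knockout heads, neither past the threshold in the authors' deposited tables (DESeq2 adjusted p = 0.0584 and 0.653). Over both genotypes it was 0.48 ± 0.14 (normal test over 8474 genes, adjusted p = 0.00867). Of the 6 members tested over both genotypes, v and ry rose and Pu fell, while 7.1% of all genes tested were called (5.04% higher, 2.07% lower). Under a t reference on 6 degrees of freedom none of these 3 passed, with adjusted p of 0.134 for v, 0.1004 for Pu and 0.239 for ry.

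Sepia transcript did not pass in any comparison. The level of se (FBgn0086348, chromosome 3L, 8520552 to 8521489, plus strand) was 85.4 to 85.6 ppm in fed and 86.6 to 86.7 in fasted control heads. Knockout heads had 114.2 to 114.4 when fed and 102.7 to 102.9 when fasted. The log2 fold in knockout over control heads was 0.41 ± 0.18 when fed in the authors' deposited table (DESeq2 adjusted p = 0.267). Over both states the fold was 0.34 ± 0.14 (normal test, adjusted p = 0.117), with a 95% interval of 0.07 to 0.62. Fed knockout heads had the highest mean level for se, st and bw. Of the exon bases of se, 61 of 825 are shared with GstO2 on the opposite strand.

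**Figure D3:**
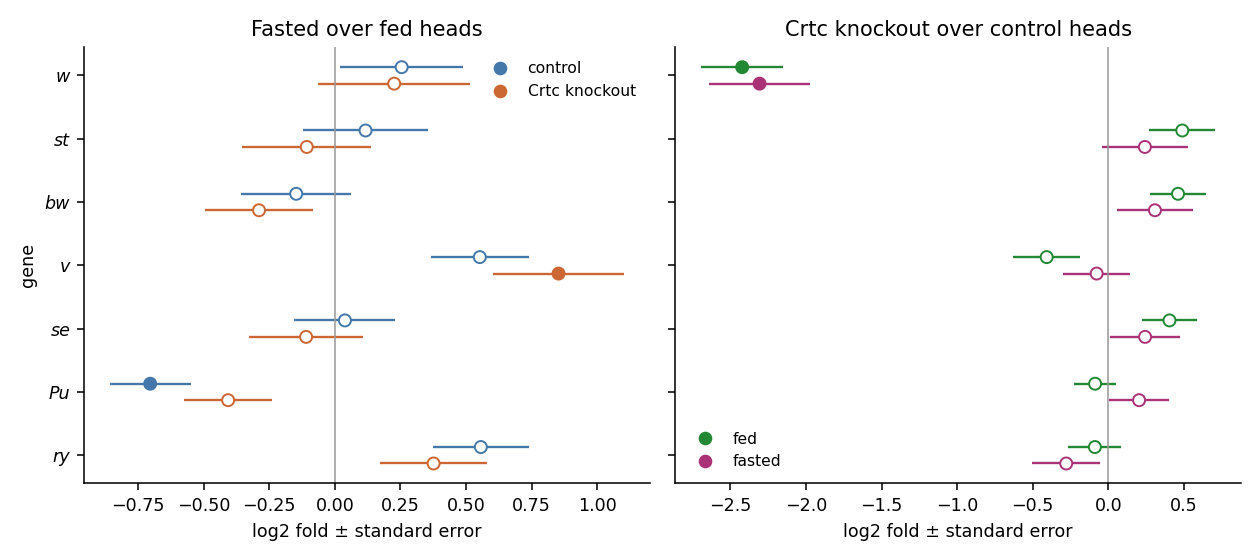
Log2 folds with the authors' standard errors for the 7 measured genes, on fasting (left) and in knockout over control heads (right); filled points have an adjusted p under 0.05 in the authors' deposited tables. Filled points are Pu in control heads at -0.70, v in knockout heads at 0.85, and w in both genotype comparisons at -2.42 and -2.31.

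The fasting response of these genes did not differ between the genotypes past the threshold. Of 6 members tested, 0 were called for the difference, against 0.802% of 8474 genes (0.696% higher, 0.106% lower, normal test). The differences, knockout minus control, ran from -0.22 ± 0.34 for st to 0.30 ± 0.31 for v, with an adjusted p of 0.9998 throughout and 0 members at an unadjusted p under 0.05. Among all genes tested 349 of 8474 had such an unadjusted p by the normal test. For Pu the difference was 0.30 ± 0.23, with a 95% interval of -0.15 to 0.75. For ry it was -0.18 ± 0.27, with an interval of -0.71 to 0.35. Differences of about 0.7 on the log2 scale therefore lie within some of these intervals. The gene w was not tested for it, since its base mean in knockout heads was under 10.

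The further genes of pteridine synthesis and use, with those of the molybdenum cofactor that Rosy needs, had 1 called member, Henna, on fasting. Of 12 such genes, 10 were tested. Over both genotypes 1 rose on fasting, 0 fell and 9 were not called, with a median log2 fold of -0.10 against -0.02 for all genes tested. With 5.04% of all genes called higher and 2.07% lower, 1 of 10 lies near the background. This was Hn, phenylalanine hydroxylase, an enzyme that uses the cofactor made from the product of Punch. Its log2 fold on fasting was 0.87 ± 0.19 (control) and 1.25 ± 0.22 (knockout) by the authors' deposited tables (DESeq2 adjusted p = 0.000305 and 1.25e-06). The genes of the steps after Punch, pr and Sptr, stood at -0.42 ± 0.19 and -0.21 ± 0.24 in control heads, not called in the authors' deposited table. In knockout over control heads 0 of the 10 were called in either state by the authors' DESeq2, and 0 when fed and 2 when fasted had an unadjusted p under 0.05. Among all genes tested 1199 of 10285 when fed and 1183 of 9917 when fasted had such a p. The count of 0 called is also near the background of 4.75% called when fed and 5.39% when fasted. The 3 genes of GTP supply (ras, bur and pn) were called in 0 comparisons, with 0 at an unadjusted p under 0.05 by the authors' DESeq2 or the normal test. By comparison, 0.802% to 10.4% of all genes tested were called. From 349 of 8474 to 1525 of 8557 genes had an unadjusted p under 0.05. For 3 genes, counts of 0 lie near these shares.

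Of the 4 enzymes that use tetrahydrobiopterin, Hn rose on fasting over both genotypes while ple, the tyrosine hydroxylase gene of dopamine synthesis, fell with -0.55 ± 0.17 (normal test, adjusted p = 0.0177). Trhn and Nos were not called there, where 5.04% of all genes tested were called higher and 2.07% lower. Nos, nitric oxide synthase, was lower in knockout heads, at -0.52 ± 0.17 when fed and -0.84 ± 0.22 when fasted in the authors' deposited tables (DESeq2 adjusted p = 0.0387 and 0.00448). By comparison, 2.49% of all genes tested were called lower when fed and 1.97% when fasted. Among the relatives of Rosy, AOX1, an aldehyde oxidase gene, fell on fasting in control heads with -0.95 ± 0.18 in the authors' deposited table (DESeq2 adjusted p = 8.41e-06). There 1.65% of all genes tested were called lower. In knockout heads AOX1 stood at -0.45 ± 0.21 and was not called in the authors' deposited table (DESeq2 adjusted p = 0.453). AOX3 was not called, AOX2 and AOX4 had a base mean of at most 1.4, and Uro, the urate oxidase gene, was listed at 0.

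**Figure D4:**
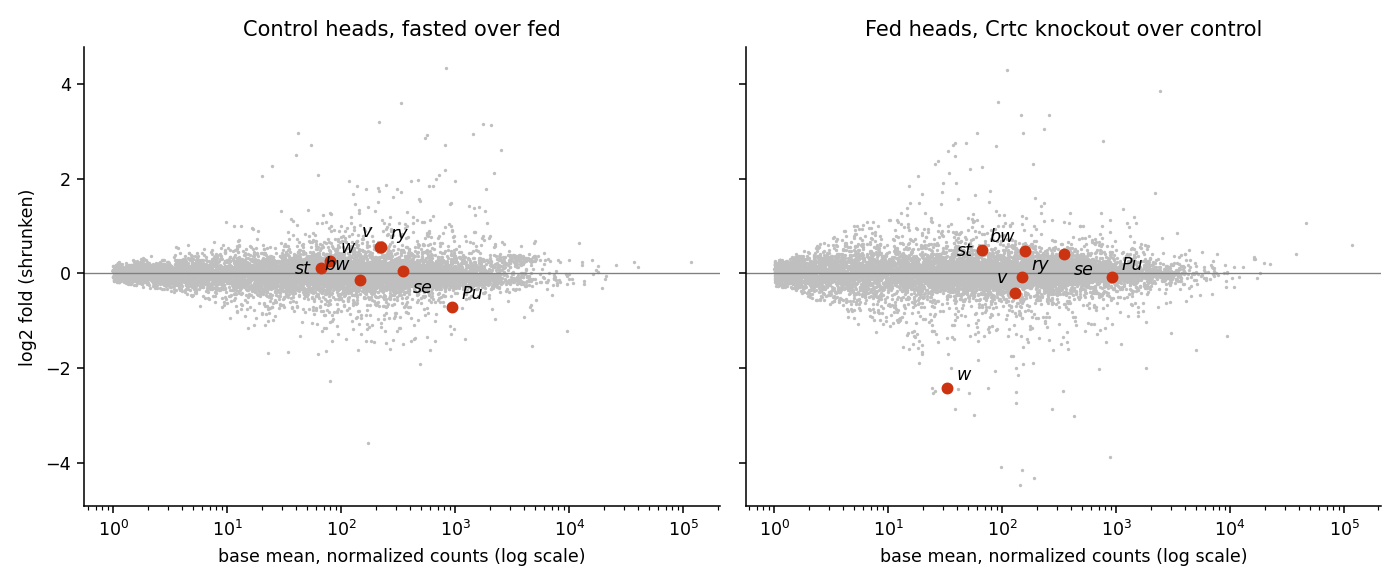
Shrunken log2 fold against base mean (log axis) of all genes whose base mean reached 1, in grey, with the 7 measured eye pigment genes in red, for fasting in control heads (left) and for fed knockout over control heads (right). In the right panel w lies at -2.42 at a base mean of 32.7, and the other 6 lie between -0.41 and 0.49; in the left panel Pu lies at -0.70.

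Genes of protein transport to the pigment granule were measured beside White. Of 22 such genes, among them those of the AP-3 complex (g, rb, cm, or), the HOPS complex (dor, car, lt) and the granule GTPase gene Rab32, 18 were tested and 0 were called in any of the 7 comparisons by the authors' DESeq2 or the normal test. At an unadjusted p under 0.05 there were also 0, where all genes tested gave from 349 of 8474 to 1525 of 8557 by comparison. Between 0.802% and 10.4% of all genes tested were called in these comparisons, so a count of 0 among 18 lies near that background. Their median log2 fold in fed knockout over control heads was -0.05, with a range of -0.30 to 0.24, against 0.00 for all genes tested in the authors' deposited table.

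Relatives of White in the ABCG family had no member as low. Of 10 tested, 0 were lower and 3 were higher in fasted knockout heads, and 1 was lower and 0 were higher in fed ones. Over all genes tested, 1.97% were lower and 3.43% higher when fasted, and 2.49% lower and 2.27% higher when fed. The lower one was CG31689, at -0.50 ± 0.14 when fed and 0.61 ± 0.19 when fasted in the authors' deposited tables (DESeq2 adjusted p = 0.00906 and 0.0338). CG5853 and CG32091 were higher when fasted, by 0.93 ± 0.27 and 0.92 ± 0.30 in the authors' deposited table (DESeq2 adjusted p = 0.0174 and 0.0368). On fasting in knockout heads CG31689 and CG5853 rose by 1.29 ± 0.17 and 1.64 ± 0.28 in the authors' deposited table.

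Markers of the cells that hold eye pigment were measured beside these genes. Of the 3 pigment cell markers, rdhB, a retinol dehydrogenase gene, was higher in fasted knockout heads by 0.67 ± 0.20 in the authors' deposited table (DESeq2 adjusted p = 0.0202). Pdh, a further retinoid dehydrogenase gene, fell on fasting in control heads with -0.56 ± 0.18 in the authors' deposited table (DESeq2 adjusted p = 0.0391). The third marker, pinta, went the other way in both, at -0.23 ± 0.22 and 0.40 ± 0.19, and was not called. Among all genes tested 3.43% were called higher in fasted knockout heads, and 1.65% lower on fasting in control heads. The summed level of the 3 was 1645 ppm in fed and 1104 to 1105 in fasted control heads, and 1372 to 1373 and 1571 in fed and fasted knockout heads. Most of that sum is Pdh, with 1473 to 1474 ppm in fed control heads. None of the 3 was lower in knockout heads past the threshold, with folds of at least -0.26 in the authors' deposited tables, where w stood at -2.42 and -2.31.

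Several photoreceptor markers were higher in knockout heads. Of 14 tested, 5 were higher and 0 lower when fed, with a median of 0.41, and 4 were higher and 1 lower when fasted, with a median of 0.20. Of all genes tested, 2.27% were higher and 2.49% lower when fed, and 3.43% were higher and 1.97% lower when fasted. The most changed was the rhodopsin gene Rh6, at 3.85 ± 0.18 when fed in the authors' deposited table (DESeq2 adjusted p = 3.37e-102), followed by Rh5 at 1.06 ± 0.14 and the arrestin gene Arr2 at 1.06 ± 0.14 in the same authors' deposited table. Their summed level was 66087 to 66108 and 74539 to 74596 ppm in fed and fasted control heads, and 98832 to 98860 and 89711 to 89724 in fed and fasted knockout heads. The marker ninaA was listed at 0 in every table. The part of these levels in the values of st, bw and se, which also had their highest means in fed knockout heads, was not tested.

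Beside the fasting changes of v, ry and Pu, markers of other tissues moved. Of all genes tested over both genotypes, 5.04% were called higher and 2.07% lower on fasting. Of 5 fat body markers tested over both genotypes, 0 rose and 3 fell. By the authors' deposited tables, 0 rose and 4 fell in control heads, and 1 rose and 2 fell in knockout heads. There AkhR rose by 1.01 ± 0.21 (DESeq2 adjusted p = 7.78e-05), while Lsp2 and Lsp1beta stood at -1.81 ± 0.23 and -0.92 ± 0.28. The list's summed level was 3541 to 3542 ppm in fed and 1289 to 1291 in fasted control heads. The same sum was 3658 to 3680 in fed and 2763 to 2801 in fasted knockout heads. Most of it is apolpp, with base means of 9619 of 10757 for control heads and 8980 of 11823 for knockout heads. Of 4 hemocyte markers tested over both genotypes, 4 fell. Their list's summed level was 254.6 to 256.0 ppm in fed and 89.6 to 89.7 in fasted control heads, and 325.7 to 326.5 in fed and 149.4 to 150.4 in fasted knockout heads. Of 4 muscle markers, 2 fell and 0 rose, and of 7 glial markers 1 rose and 2 fell. Of 5 neuron markers 0 were called, with 1 at an unadjusted p under 0.05 by the normal test, as 1269 of all 8474 genes had. The other fat body list genes, Fbp1 and Fbp2, had base means of at most 1.2 and were not tested. Between genotypes, 3.43% of all genes tested were called higher in fasted and 2.27% in fed knockout heads. In fasted knockout over control heads, 5 of 5 fat body and 5 of 5 muscle markers were higher, with medians of 1.79 and 0.74. In fed heads 2 of 5 and 1 of 5 were higher, with medians of -0.02 and 0.04. Their part in the fasting and genotype values was not tested.

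**Figure D5:**
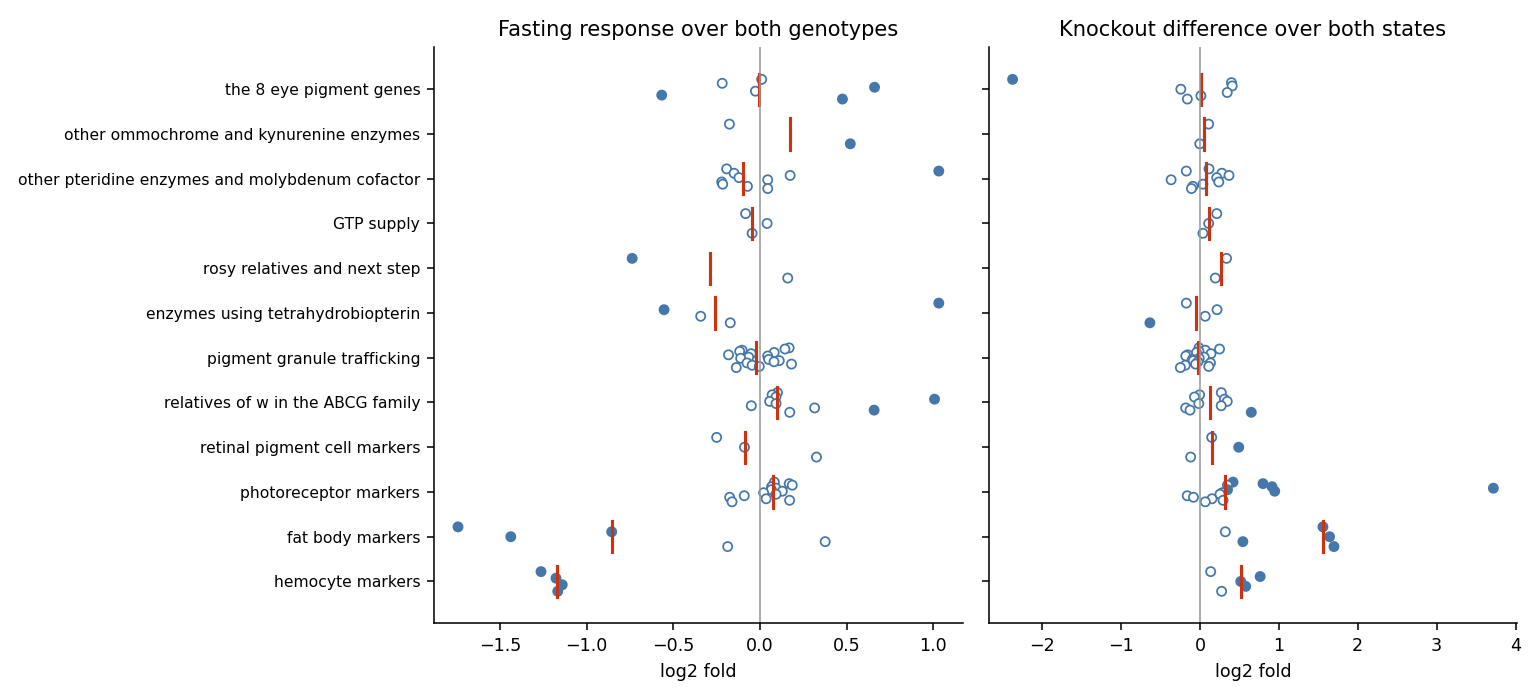
Log2 folds of the tested genes of the lists shown over both genotypes on fasting (left) and over both feeding states in knockout over control heads (right), each over 2 tables that share no library; a point is a gene, filled where the adjusted p was under 0.05, and the red line is the list's median. White stands alone at -2.38 among the eye pigment genes on the right, and the 18 granule trafficking genes are all open on both sides.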

How the data were processed

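Polyadenylated RNA of fly heads was compared in 4 tables. Per the submitters' processing notes, the authors' tools included DESeq2, Cuffdiff, STAR and TopHat2, with builds dm6 and dm3, but roles and versions are not stated. The counting tool, its strand setting and the build behind the tables are not given in the sources used here. Per the file headers, the authors deposited a base mean (a signal, the mean of size-factor normalized counts over a comparison's libraries), a log2 fold with its standard error, also log2, a Wald score, a p-value and an adjusted p-value for each of 17559 FlyBase identifiers. No table has values per library, so depth per library is unknown and counting error is part of the authors' standard errors. Summed base means ran from 3465010 to 4405826 normalized counts.

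The members and the gene lists were chosen with earlier results of these data known. Symbols came from an Ensembl name table, which matched 17253 identifiers. Positions, exon lengths and overlaps came from the Ensembl annotation of assembly BDGP6.

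The standard errors have a ceiling of 0.285 to 0.359, the form a normal prior gives in the authors' DESeq2, so the deposited log2 folds are shrunken towards 0. The ceiling was taken to lie midway between 0 and the prior's standard deviation, and this prior was taken out of folds and errors where a sentence says unshrunken. Group levels were solved from base mean, unshrunken fold and library numbers, and scaled to ppm of the group's sum. For 8430 genes whose base mean reached 10 in every table, the estimates of a group from its 2 tables differed by a median of 0.0027 on the log2 scale. The tables thus share the libraries of each group, although their names number them otherwise than the labels do.

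The threshold was an adjusted p under 0.05, taken as deposited for single tables. No library is common to the 2 fasting tables or to the 2 genotype tables. From each such pair an inverse-variance mean of the log2 folds was computed over all genes whose base mean reached 10 in both. For the fasting tables the difference (knockout minus control) was computed as well. Both had two-sided normal p-values with Benjamini-Hochberg adjustment. They were run on simulated folds whose errors were normal with the deposited standard errors. Such a run checks the calculation only, and cannot show whether standard errors from 2 or 3 libraries per group are right. Alternatives were other filters, thresholds, reference distributions and weights, folds without the prior, and the difference taken from the genotype tables. Named are the 8 members, at most 4 called genes per list, for members called in a single table (w, v and Pu) the 3 genes with the closest 4 folds, and the 3 nearest measured genes on either side of w, st and Crtc. Python 3.11.15, pandas 2.3.3 and SciPy 1.17.1 were used. CREB mutant, Sik2 mutant and body samples were not analysed here.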

Additional observations from a re-analysis of the deposited data

Results flagged for a closer look

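The fasting response differed between the genotypes for 5 genes named in the lists, by the test of the difference itself. These 5 are named because they passed. Of the 6 eye pigment genes tested 0 were called, which lies near the 0.802% called among all 8474 genes. The difference, knockout minus control on the log2 scale, was 1.09 for CG31689, a relative of White, whose fold on fasting was 1.29 in knockout and 0.20 in control heads in the authors' deposited tables. For the glial marker alrm it was 1.47. For the fat body markers AkhR and Lsd-1 it was 1.27 and 1.81, and for the muscle marker Mlc2 it was 0.95. Under a t reference on 6 degrees of freedom, this test called 0 genes.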

How the results depend on the processing

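The number of members called was compared across settings. In control fasting it went from 1 to 2 at a base mean of at least 50, where ry passed (adjusted p = 0.0464), and to 3 at a threshold of 0.1, where v and ry passed. In knockout fasting it went from 1 to 0 at a threshold of 0.01. At a base mean of at least 50, the counts in fed knockout against control and over both feeding states went from 1 to 0, because w (base mean 32.7 when fed) was then not tested. With a t distribution with the residual degrees of freedom of each table the count was 0 in all 4 tables, as it was over all genes in each of them, and with 6 degrees of freedom it was 0 for the fasting response over both genotypes (v, Pu and ry at adjusted p = 0.134, 0.1004 and 0.239), while w was still called over both feeding states. The 0 calls of the single tables under the t distribution include Crtc, so that setting cannot set one gene apart from another. Taking out the prior leaves single-table tests as they are by construction. Among single-gene values under the alternatives, 249 kept their side of the threshold, 3 passed newly, 8 no longer passed and 0 called values changed direction. Many of the 249 could not change, since an uncalled value cannot pass at a threshold of 0.01. Direction could not change where a setting reuses the same fold. Of the called values, only w over both feeding states passed in every setting that tested it. The median gap between a group's 2 level estimates went from 0.0027 to 0.0195 on the log2 scale with the folds as deposited. No paired analysis was possible because the tables hold no values per library, and for the same reason no replicate could be left out. Depth limits w in knockout heads, at a base mean of 4.94, and cn in all groups.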
